A study of Mus musculus with 4 samples.

Results

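Classical monocytes of the lung were described here from 95 cell barcodes, of 27495 barcodes kept in the 2 lung libraries and 49121 kept in all 4 libraries of the series. A barcode stands for 1 droplet. It was kept if 200 or more genes were detected and no more than 10% of its unique molecular identifiers (UMIs, counted transcript molecules) came from mitochondrial genes. A kept lung barcode became a member when at least 3 of the 6 monocyte genes Ly6c2, Ccr2, F13a1, Csf1r, Fn1 and Vcan were detected. It also had to lack Ace and Treml4 (non-classical monocytes), Cd79a and Cd3e (B and T cells) and Marco, Siglecf and Ear1 (alveolar macrophages), with at most 2 UMIs of the neutrophil genes Retnlg and Csf3r together. The members were thus chosen by measured transcripts, so the levels of these genes describe the choice and are not findings. The metastasis lung held 67 members and the sham lung 28.

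The series took lung and blood cells from female mice of the C57/Bl6 strain at 6-8 weeks of age, 7 days after surgery. The metastasis arm, named so for liver metastasis, received 800000 B16F10 cells, a mouse melanoma line that grows in syngeneic animals, into the spleen on day 0, and the sham arm received saline in their place. The spleen was then taken out in both arms, and animals of both arms carried a subcutaneous tumour from 250000 B16F10 cells, so no group was free of tumour and none had a spleen. There was 1 library per tissue and arm, enriched for CD45-positive immune cells, and the labels do not say how many mice a library pools. With 1 library per arm no test across animals could be made. Intervals below are 95% intervals that cover counting error only, and library and arm cannot be told apart.

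Classical monocytes leave the bone marrow through the chemokine receptor CCR2, circulate for a short time and enter tissues, where they can become macrophages or dendritic-like cells. In the mouse they carry surface Ly6C at a high level, and some of them lose it and become non-classical monocytes, which patrol the vessel wall and depend on the nuclear receptor NR4A1. The lung holds both subsets in its large vascular bed, and CCR2-dependent monocytes are known there as precursors of tumour-associated macrophages.

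Depth was alike in the members of both lungs. Their median was 5386 UMIs and 2028 genes per barcode in the metastasis lung, and 5484.5 UMIs and 2056.5 genes in the sham lung. Haemoglobin transcripts were abundant in these libraries, at 78.1% of all UMIs in the metastasis lung and 65.7% in the sham lung. These shares are over all barcodes, those of red cells included, and do not measure free transcripts. In the members they made up 10.9% and 14.1% of UMIs. Levels are therefore given as CPM, the counts of a gene scaled to 1000000 non-haemoglobin UMIs, summed over the members of a library, which left 338762 UMIs in the metastasis lung and 132234 in the sham lung. The 2 lung libraries shared 316 barcode sequences, 52 of them kept in both, and no sequence was a member in both, while 1 member sequence of the metastasis lung occurred in the sham lung as another barcode. Scrublet, a doublet caller, put 1 member of the metastasis lung and 0 of the sham lung over a score of 0.3.

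The label could be checked only in part, since the rule itself asks for monocyte markers and leaves out markers of some other cells. Lyz2, the lysozyme gene of myeloid cells and no part of the rule, was detected in 98.5% of members in the metastasis lung and in 96.4% in the sham lung. In B cell barcodes, which should lack it, the share was 2.85% and 1.77%, at a median depth of 1764.5 and 2264 non-haemoglobin UMIs against 5016 and 5205 in members. After each barcode was thinned to 1000 non-haemoglobin UMIs, Lyz2 was still found in 98.5% and 96.4% of members and in 2.67% and 1.21% of B cell barcodes. Ly6c2, which encodes the Ly6C antigen, was detected in 92.5% of members in the metastasis lung and 85.7% in the sham lung, and its close relative Ly6c1 had only 2 UMIs and 1 UMI in all. Ccr2 was detected in 89.6% and 89.3%, F13a1, the A subunit of coagulation factor XIII, in 79.1% and 85.7%, and Fn1, fibronectin, in 88.1% and 92.9%. Csf1r, the receptor for the main macrophage growth factor, was detected in 88.1% and 78.6%, and Vcan, the matrix proteoglycan versican, in 61.2% and 50%. These 6 genes were the ones used to choose the barcodes. Ly6c2 was also detected in 21.9% of T cell barcodes in the metastasis lung and 26.7% in the sham lung. Lyz2, as a gene of myeloid cells, sets members apart from B cells and does not tell classical monocytes from macrophages.

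**Figure D1:**
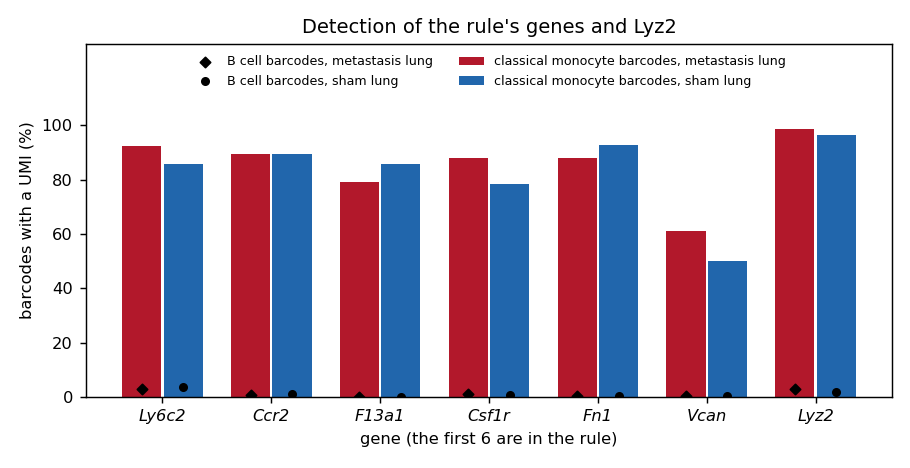
Share of barcodes with at least 1 UMI (vertical axis, %) of the 6 genes of the rule and of Lyz2, in classical monocyte barcodes (bars) and B cell barcodes (black points) of the metastasis lung (red, 67 members) and sham lung (blue, 28 members). Bars for Lyz2 stand at 98.5% and 96.4%, and every B cell point lies at or below 3.63%.

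Members with exactly 3 of the 6 genes were few, at 8 barcodes in the metastasis lung and 4 in the sham lung, while 26 and 8 barcodes held all 6. Barcodes just outside the rule, with 2 of the 6 genes, numbered 88 and 197, and Lyz2 was detected in only 7.95% and 2.03% of them. Among members with exactly 3 genes it was detected in 87.5% and 75%. The median depth just outside was 2346.5 and 2657 UMIs, against 4672.5 and 5370.5 with 3 genes.

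Some defining transcripts of other cell types were at 0 in members. No UMI was found in either lung for Cxcr2, Mmp9 and Camp of neutrophils, Cd3d of T cells, Ms4a1 of B cells, Xcr1 and Clec9a of type 1 dendritic cells, Cd209a of type 2 dendritic cells, Siglech of plasmacytoid dendritic cells, Mcpt8 of basophils, Ppbp of platelets, or Mlana and Pmel of melanoma cells. A few barcodes went against this. In the metastasis lung 1 barcode held 218 of the 219 UMIs of fibroblast markers without Gsn, such as Dcn and Mgp. In the sham lung 4 of the 28 members held 97 UMIs of the complement genes C1qa, C1qb and C1qc, which mark tissue macrophages, with 53 of them in 1 barcode, against 15 UMIs in 3 of 67 members in the metastasis lung. In the sham lung 3 barcodes held 255 UMIs of Retnla, a gene of alternatively activated macrophages, and 172 of these came from 1 barcode. The summed level of 10 NK cell markers was 451.6 CPM in 7 members of the metastasis lung and 476.4 CPM in 5 of the sham lung, with 93.7% of the latter in 1 barcode. The 15 neutrophil markers summed to 590.4 CPM in members of the metastasis lung, with 3 of the 15 at 0, and to 317.6 CPM in the sham lung, with 9 at 0. The 10 interstitial macrophage markers summed to 1396 and 2632 CPM, in 46 and 21 barcodes. The other genes of the dendritic cell lists had UMIs in many members. The type 1 list had 4 of 8 genes at 0 in each lung and summed to 318.8 CPM over 49 members and 294.9 CPM over 21 members. The type 2 list had 4 and 3 of 9 genes at 0 and summed to 265.7 CPM over 43 members and 476.4 CPM over 25 members. The plasmacytoid list had 5 of 8 genes at 0 in each lung and summed to 410.3 CPM over 55 members and 521.8 CPM over 24 members. In the metastasis and sham lung the B cell list had 26 and 17 UMIs in 19 and 13 members, and the T cell list 8 and 0. The melanoma list had 17 and 9 UMIs, the endothelial list 10 and 13 and the basophil and mast cell list 2 and 0. The platelet list had 1 and 12 UMIs, with 91.7% of the 12 in 1 barcode. The part of these other transcripts in the comparisons was not tested beyond the alternatives given. For metastasis over sham in lung members, results that move with these barcodes are given below with and without them.

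Free RNA of the lung was visible in members as in other cells. Scgb1a1, a secretory gene of airway club cells, was detected in 62.7% of members and 61.1% of B cell barcodes in the metastasis lung, and in 35.7% and 32.2% in the sham lung. S100a8, which neutrophils make in large amounts, had 43 UMIs in 16 members of the metastasis lung and 1 UMI in the sham lung. B cell barcodes of the metastasis lung carried S100a8 in 6.12% of cases, against 0.376% in the sham lung, and the members' share thinned to equal depth was 5.97% in the metastasis lung beside 4.51% in B cell barcodes. S100a8 in members was therefore at the level of the background there and is read no further.

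Classical monocytes made up a larger share of the metastasis lung than of the sham lung. Among kept barcodes with less than 50% haemoglobin UMIs, 66 of 7054 were members in the metastasis lung (0.936%, exact Clopper-Pearson interval 0.724 to 1.19%). In the sham lung 25 of 11994 were members (0.208%, interval 0.135 to 0.308%). The ratio of these shares was 4.49, with a counting interval of 2.79 to 7.43. Against all kept barcodes, which include many that are mainly haemoglobin, the shares were 0.501% and 0.198% and the ratio was 2.53 (interval 1.61 to 4.09). Neutrophil barcodes were 14.9% of the first denominator in the metastasis lung and 0.317% in the sham lung, and without them the ratio was 5.29 (interval 3.29 to 8.75). Thinned to 1000 non-haemoglobin UMIs, 44 of 6539 barcodes met the rule in the metastasis lung and 21 of 11546 in the sham lung, a ratio of 3.70, with 515 and 448 shallower barcodes left out. A share says nothing of the number of monocytes in the tissue, since enrichment and the other cells set the denominator.

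Non-classical monocytes, called by a UMI of Ace or Treml4 and at least 2 further markers such as Cx3cr1 and Ear2, were higher by a like factor. They were 255 of 7054 barcodes in the metastasis lung (3.62%) and 99 of 11994 in the sham lung (0.825%), a ratio of 4.38 (interval 3.46 to 5.58). Unlike members, this class had no limit on Retnlg and Csf3r. Without neutrophil barcodes, called by more than 2 UMIs of these genes together, it was 217 of 5963 and 96 of 11953. That ratio was 4.53 (interval 3.55 to 5.82). Members were 67 of the 338 monocyte barcodes of both kinds in the metastasis lung (19.8%) and 28 of 131 in the sham lung (21.4%), and the interval of their ratio, 0.588 to 1.5, included 1. B cell barcodes went the other way, at 26.4% and 34.8% of barcodes, and so did T cell barcodes, at 22.2% and 35.6%. In blood, where the same rule was applied to barcodes without the platelet transcripts Pf4 and Ppbp, members were 64 of 5162 barcodes in the metastasis arm (1.24%) and 53 of 12291 in the sham arm (0.431%). That ratio was 2.88 (interval 1.97 to 4.22).

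Transcripts of the members were then compared between the lungs. A gene counted as measured with at least 50 UMIs over both sums and a mean of at least 20 CPM, which 1579 genes met, and as apart when its CPM differed at least 2-fold and its exact conditional binomial interval excluded equality. By this rule 30 genes (1.9% of those measured) were higher in the metastasis lung and 28 genes (1.77%) were lower, and the median log2 ratio of all measured genes was 0.05. Some of the 30 rest on other cells: Dcn, Mgp and Gsn came mainly from the fibroblast-rich barcode, and Scgb1a1 was detected in B cells at a like share. Leaving out barcodes over 5% haemoglobin gave 16 genes higher, and leaving out barcodes with macrophage or dendritic cell transcripts gave 14 lower.

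Of the 12 genes named on the higher side, Vcan is a gene of the rule and is described with the others of the rule further on. Psmb9, a subunit of the immunoproteasome that trims peptides for MHC class I, was at 171.2 and 60.5 CPM, a log2 ratio of 1.5 (interval 0.43 to 2.78). Fyn, a Src family kinase, was at 162.4 and 52.9 CPM, a log2 ratio of 1.62 (interval 0.48 to 3.00). These genes were detected in a larger share of barcodes as well: Psmb9 in 47.8% of metastasis lung members and 21.4% of sham lung members, and Fyn in 44.8% and 25%. Vti1a, a SNARE protein of vesicle fusion, reached the largest ratio by this rule, 1.88 (interval 0.55 to 3.56), from 47 UMIs in the metastasis lung and 5 in the sham lung. Limd2, a LIM domain protein, followed at 1.87 (interval 0.65 to 3.37). The other genes named by the rule were Smc1a, a cohesin subunit, Tns3, a tensin of focal adhesions, Ndufc2, a subunit of respiratory complex I, Cd300c2, a CD300 family receptor, and Rwdd1, Ubap2l and Mcts1, with log2 ratios from 1.28 to 1.61. All 12 were detected in at least 40.3% of metastasis lung members, and their highest single barcode held at most 9.09% of their UMIs there.

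In blood, none of these 12 genes was 1.5-fold apart between the arms with an interval that excluded equality, beside 6.57% of all 2650 genes measured there that were higher and 3.06% that were lower. A count of 0 among 12 is near those shares, and nothing is read from it. The blood log2 ratios of the 12 ran from -0.56 to 0.52. In metastasis and sham blood Psmb9 was at 166.7 and 186.2 CPM, Limd2 at 140.5 and 145.6, Vti1a at 147.6 and 131.3, Smc1a at 133.4 and 93.1 and Cd300c2 at 157.2 and 131.3. For these genes blood lay nearer to the metastasis lung than to the sham lung, where each had 5 to 9 UMIs. They were picked for a high ratio of metastasis over sham lung, which favours genes with low sham lung sums. Nothing is therefore read from this nearness. Blood levels of the other named genes are not given here. Whether lung and blood differed was not tested.

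**Figure D2:**
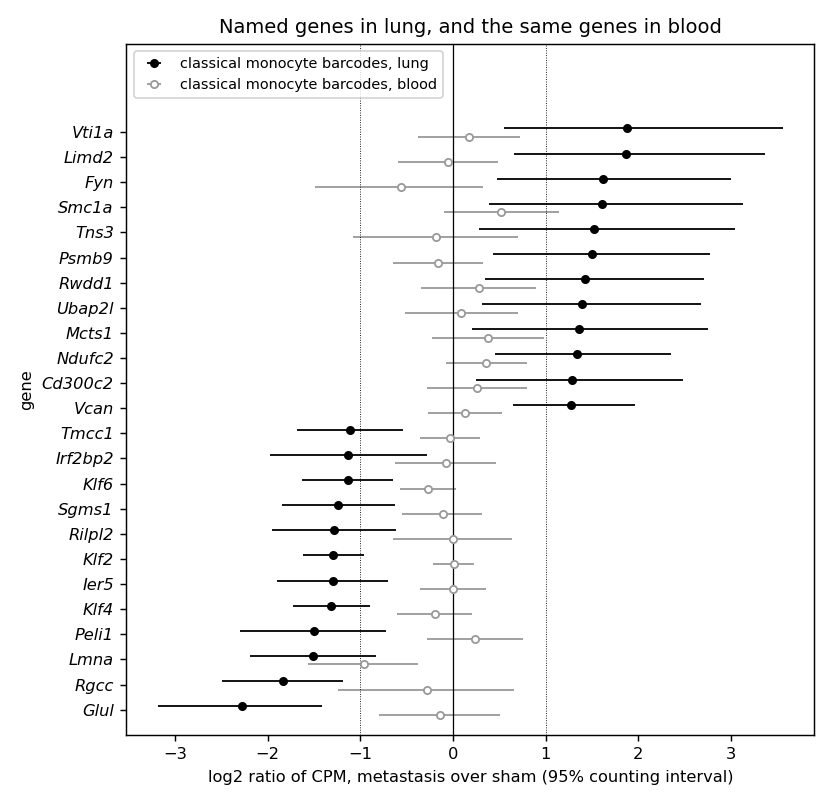
Log2 ratio of CPM, metastasis over sham (horizontal axis), for the 12 highest and 12 lowest named genes in lung classical monocyte barcodes (black) and for the same genes in blood (open grey), with 95% counting intervals and dotted lines at 2-fold. Lung ratios run from 1.88 for Vti1a to -2.27 for Glul, and the blood interval of Lmna is the one that lies wholly on the same side of 0 as in lung.

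Genes lower in the metastasis lung were led by Glul, glutamine synthetase, at 53.1 CPM against 257.1 CPM in the sham lung. Its log2 ratio was -2.27 (interval -3.19 to -1.41), and it was detected in 20.9% of metastasis lung members and 53.6% of sham lung members. Rgcc, a regulator of the cell cycle first found through complement, was at 106.3 and 378.1 CPM, a log2 ratio of -1.83 (interval -2.49 to -1.18). Lmna, which encodes the nuclear lamins A and C, was at 109.2 and 310.1 CPM, a log2 ratio of -1.51 (interval -2.19 to -0.83). Lmna was the named gene that was also lower in metastasis blood, at 90.5 against 176.7 CPM (log2 ratio -0.97, interval -1.57 to -0.38). Peli1, an E3 ubiquitin ligase of Toll-like receptor signalling, had a log2 ratio of -1.5, with 45.2% of its UMIs in the sham lung from 1 barcode. Without barcodes holding macrophage or dendritic cell transcripts it stood at -0.77, with an interval that included 0, while Glul stood at -1.87, Rgcc at -1.52 and Lmna at -1.31. The list went on with the transcription factor genes Klf4, Klf2 and Klf6 and with Ier5, which belong to the group described next, and with Rilpl2, Sgms1, a sphingomyelin synthase, Irf2bp2, a transcriptional cofactor, and Tmcc1, at log2 ratios from -1.11 to -1.28. Without the barcodes just named Tmcc1 stood at -0.53, with an interval that included 0.

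Immediate early genes formed the largest group on the lower side. These genes are switched on within minutes by growth factors, cytokines, adhesion or stress, through factors that are already present, and their transcripts are short-lived. Of the 24 genes listed, 17 were measured in members, 13 were at least 1.5-fold lower in the metastasis lung with an interval that excluded equality, and none was higher. Over all measured genes, 5.76% were lower and 4.62% higher by that rule. The median log2 ratio of the 17 was -1.0, against 0.05 for all measured genes.

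The AP-1 family, dimeric factors of FOS, JUN and ATF proteins, took part unevenly. Fosb was at 188.9 CPM in the metastasis lung and 521.8 CPM in the sham lung, a log2 ratio of -1.47 (interval -1.98 to -0.95), and it was detected in 40.3% and 67.9% of members. Atf3, a repressor of inflammatory genes in macrophages, was at 283.4 and 567.2 CPM (log2 ratio -1.0), and Jund was at 466.4 and 884.8 CPM (-0.92). Junb, at 1063 and 1573 CPM, and Fos, at 832.4 and 1066 CPM, missed the 1.5-fold bound at -0.57 and -0.36. Jun had a log2 ratio of -0.67, but 32.8% and 44.4% of its UMIs came from 1 barcode in each lung. Egr1, a zinc finger factor, had the lowest ratio of the group, -1.77, from 24 and 32 UMIs, of which 54.2% and 59.4% came from 1 barcode.

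Among Krüppel-like factors, Klf2 was at 475.3 CPM in the metastasis lung and 1165 CPM in the sham lung, a log2 ratio of -1.29 (interval -1.62 to -0.96). A single sham lung barcode held 29.9% of the Klf2 UMIs, and without the top barcode of each library the ratio was -0.90. Klf4, which is needed for monocyte differentiation, was at 301.1 and 748.7 CPM, a log2 ratio of -1.31 (interval -1.73 to -0.90), with no barcode above 10.1% of its UMIs. Klf6 was at 230.3 and 506.7 CPM (-1.14). The values of Klf2 and Klf6 depended on barcodes with macrophage or dendritic cell transcripts: without them Klf2 stood at -0.74 (interval -1.14 to -0.34), and Klf6 at -0.52 with an interval that included 0, while Klf4 stood at -1.06. The 3 genes were detected in 77.6%, 65.7% and 64.2% of metastasis lung members, against 82.1%, 78.6% and 82.1% in the sham lung.

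Nr4a2, an orphan nuclear receptor, was at 245.0 and 491.6 CPM (log2 ratio -1.0, interval -1.49 to -0.51). Its relative Nr4a1, the factor of non-classical monocytes, was at 466.4 and 680.6 CPM (-0.55, interval -0.93 to -0.16) and was detected in 88.1% and 89.3% of members. Dusp1, a phosphatase that ends MAP kinase signalling, was at 377.9 and 771.4 CPM (-1.03, and -0.52 without barcodes holding macrophage or dendritic cell transcripts), and Zfp36, which encodes the mRNA decay factor tristetraprolin, was at 460.5 and 695.7 CPM (-0.60). Ier5 was at 147.6 and 363.0 CPM (-1.30) and Ier2 at 301.1 and 461.3 CPM (-0.62). Btg2, an antiproliferative gene, was closest to even after Fos, at -0.39.

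Member barcodes overlapped between the lungs in this measure. Transcripts of the 24 genes made up a median of 0.677% of a barcode's non-haemoglobin UMIs in the metastasis lung (quartiles 0.523 and 0.875%, range 0.284 to 2.30%). In the sham lung the median was 0.855% (quartiles 0.720 and 1.53%, range 0.196 to 4.07%). Over the summed UMIs the values were 0.724% and 1.25%. The upper quartiles were thus farther apart than the medians. In blood the medians were 0.890% in the metastasis arm and 0.998% in the sham arm, and in lung non-classical monocytes they were 0.947% and 0.993%.

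**Figure D3:**
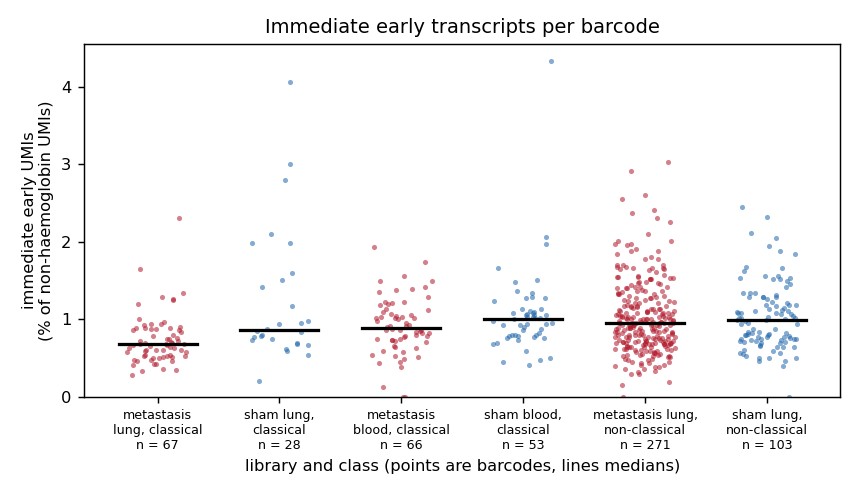
Share of non-haemoglobin UMIs from the 24 immediate early genes (vertical axis, %) in single barcodes (points) of classical monocytes in lung and blood and of non-classical monocytes in lung, with the median of each library as a black line. The metastasis lung median is 0.677% and the sham lung median 0.855%, with overlapping points, and 4 sham lung values lie above 2%.

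Other cell types gave the same list other values. In non-classical monocytes of the same lungs 21 of its genes were measured. There 1 was 1.5-fold lower, Klf4 (log2 ratio -0.59, interval -0.80 to -0.38), and 1 higher, Fos (0.62). The median log2 ratio was -0.07, where 4.22% of all measured genes were lower and 4.38% higher. In B cells 1 of 21 was lower (0.478% of all measured genes) and 0 higher (1.91%), with a median of -0.05. In T cells 0 of 20 were lower (0.109%) or higher (1.23%), with a median of 0.08, and in NK cells 0 of 19 were lower (0.642%) and 2 higher (1.4%), with a median of -0.01. The lymphocytes and the other monocyte subset of these lungs thus stood near even. Alveolar macrophages had 1 of 16 lower (4.28%) and 0 higher (4.16%), with a median of -0.01. Neutrophil barcodes had 5 of 20 lower (5.9%), 0 higher (2.99%) and a median of -0.49, and endothelial barcodes 10 of 17 lower (15.1%), 0 higher (14.9%) and a median of -0.63. Classical monocytes of blood had 2 of 16 measured genes lower, Fosb and Jund, where 3.06% of all measured genes were lower, and 0 higher, where 6.57% were, with a median of -0.06. Blood non-classical monocytes had 4 of 22 lower (7.93%) and 2 higher (7.51%), with a median of -0.02, and blood neutrophils 15 of 19 lower (19.6%) and 0 higher (9.35%), with a median of -0.75. No test of the difference between cell types was possible with these libraries.

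**Figure D4:**
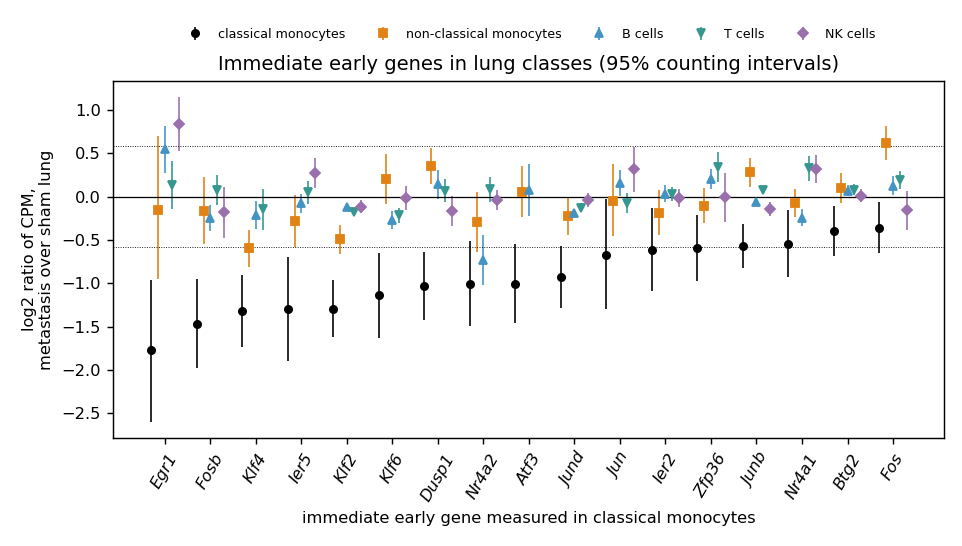
Log2 ratio of CPM, metastasis over sham lung (vertical axis), for the 17 immediate early genes measured in classical monocytes, in 5 lung cell classes with 95% counting intervals and dotted lines at 1.5-fold. Classical monocytes (black) lie between -1.77 for Egr1 and -0.36 for Fos, below 0 for each gene shown.

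The size of the immediate early difference moved with barcodes that also held other cells' transcripts. Without the members that held 2 or more C1q UMIs or any of Flt3, Siglech, Xcr1 and Clec9a, 59 and 23 barcodes were left. Then 7 of 16 measured genes were lower, beside 4.63% of all 1318 genes measured in that setting, and 0 were higher, beside 4.55%. The 7 were Klf4, Klf2, Nr4a2, Fosb, Ier5, Atf3 and Jund, and the median of the 16 was -0.52. Klf4 stood at -1.06, Nr4a2 at -1.08, Fosb at -1.11 and Ier5 at -1.06, whereas Egr1 stood at 0.11 and Jun at 0.05. The part of these barcodes in the result was otherwise not tested. Over all 13 alternative settings the count of lower genes ran from 7 to 15 and the median from -1.17 to -0.52.

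The promoters of 3 of these genes are shown, since several immediate early genes respond to cyclic AMP and calcium through CREB, which binds the element TGACGTCA or its core TGACG. Windows of the 250 bases before the start, from RefSeq on build GRCm38.p6, were used for 11 of the 13 lower genes, without Egr1 and Ier2. The core, on either strand (TGACG or CGTCA), was found in 6 of the 11, and in 17.8% of all 32851 promoter windows of that length. The full element was found in 1 of the 11, Dusp1, and in 1.55% of all windows, and there the core matches on both strands overlap. Nr4a2 (chr2:57124004-57124253, minus strand) held 4 core matches, Dusp1 (chr17:26508473-26508722, minus strand) 3 and Fosb (chr7:19310046-19310295, minus strand) 1. They were picked for the number of matches and then for the lower log2 ratio. Sequences run 5′ to 3′ on the gene's strand, with core matches in capitals.
Nr4a2: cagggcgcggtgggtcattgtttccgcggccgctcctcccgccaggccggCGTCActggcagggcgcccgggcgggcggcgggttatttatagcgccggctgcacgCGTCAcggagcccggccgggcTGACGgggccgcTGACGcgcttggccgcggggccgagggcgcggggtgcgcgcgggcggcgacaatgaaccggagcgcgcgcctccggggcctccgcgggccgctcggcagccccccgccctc
Dusp1: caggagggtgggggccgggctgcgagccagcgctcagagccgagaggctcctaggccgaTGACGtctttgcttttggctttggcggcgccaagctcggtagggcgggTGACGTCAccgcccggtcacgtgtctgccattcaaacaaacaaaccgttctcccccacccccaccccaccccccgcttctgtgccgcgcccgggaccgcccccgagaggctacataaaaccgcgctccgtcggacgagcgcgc
Fosb: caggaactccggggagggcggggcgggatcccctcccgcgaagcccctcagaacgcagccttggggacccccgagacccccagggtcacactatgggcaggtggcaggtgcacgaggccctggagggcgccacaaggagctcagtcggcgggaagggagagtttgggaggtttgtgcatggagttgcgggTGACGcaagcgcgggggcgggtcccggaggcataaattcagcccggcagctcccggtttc
The matches in Nr4a2 start 200, 144, 123 and 111 bases before the start, those in Dusp1 191, 143 and 140 bases, and that in Fosb 60 bases. A match is a run of letters and not a site shown to be bound, and the members' log2 ratios of these genes were -1.0, -1.03 and -1.47.

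Of the identity genes of classical monocytes, 18 were not used to choose the barcodes, and all 18 were measured, with a median log2 ratio of 0.01. By the 1.5-fold rule 0 of them were higher, beside 4.62% of all measured genes, and Klf4 and Cd14 were lower, beside 5.76%. The 6 genes of the rule had to be present in members, so their levels only describe the choice. Ly6c2 was at 1080 CPM in the metastasis lung and 1021 CPM in the sham lung, Ccr2 at 740.9 and 650.4 CPM and Csf1r at 425.1 and 415.9 CPM. Vcan was at 439.8 and 181.5 CPM, from 149 and 24 UMIs, Fn1 at 1145 and 2102 CPM and F13a1 at 481.2 and 688.2 CPM. Cd14, the lipopolysaccharide co-receptor, was at 738.0 and 1119 CPM (-0.60), and without barcodes holding macrophage or dendritic cell transcripts its ratio was -0.09. Plac8, a gene of early myeloid cells, was at 4726 and 3169 CPM (0.58, interval 0.42 to 0.74), just under the 1.5-fold bound. In blood Plac8 was at 4560 and 2614 CPM (0.80). Chil3, a chitinase-like protein of young monocytes and neutrophils, had an interval that included 0, at -0.22, and stood at -0.55 (interval -0.84 to -0.26) without barcodes over 5% haemoglobin.

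Inflammatory genes gave no common direction. Of the listed genes of interleukin-1 and the inflammasome 4 were measured, and 0 were 1.5-fold apart, beside 4.62% of all measured genes higher and 5.76% lower. Il1b, the cytokine interleukin-1β, was at 1219 CPM in the metastasis lung and 1059 CPM in the sham lung (log2 ratio 0.20, interval -0.08 to 0.49), with detection in 71.6% and 67.9% of members. After thinning it was detected in 44.8% and 53.6% of members, against 2.96% and 1.06% of B cell barcodes. Il1r2, the decoy receptor, had 26 and 11 UMIs, Cd274, which encodes PD-L1, 9 and 1, Cxcr4 23 and 7, and Il1rn 2 and 0, all below the bound for a measured gene. Arg1, arginase 1, had 0 UMIs in both lungs, which allows up to 8.86 CPM in the metastasis lung and 22.7 CPM in the sham lung at 3 counts.

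Genes of NF-κB responses were split. Ier3, an apoptosis regulator, was higher, at 377.9 against 211.7 CPM (0.84, interval 0.24 to 1.48), and Tnfaip2 was lower (-0.74). Cxcl2, a neutrophil chemoattractant, was at 67.9 and 514.2 CPM (-2.92), but its UMIs came from 9 of 67 and 5 of 28 members, and without barcodes holding macrophage or dendritic cell transcripts the ratio was -1.17. Of the type I interferon list 8 were measured and 3 were lower: Isg15, a ubiquitin-like modifier, at 79.7 and 272.2 CPM (-1.77, interval -2.55 to -1.01), Bst2, tetherin (-0.80), and Ifi204, a DNA sensor of a family of near-identical genes (-0.72). Over all measured genes 5.76% were lower by this rule. The list's median was -0.04, close to that of all measured genes. Without barcodes over 5% haemoglobin 7 of the list were measured and 0 were lower by the rule, beside 5.2% of all genes measured there. Isg15, at -1.79, was then no longer among those measured. Without each gene's top barcode 1 of the list was lower. Isg15 was detected in 28.4% and 53.6% of members, and in blood it had 42 and 41 UMIs.

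Metabolic lists stayed near even, where 4.62% of all measured genes were higher and 5.76% lower by the 1.5-fold rule. Of 32 listed genes of oxidative phosphorylation 30 were measured and 0 were 1.5-fold apart, with a median of 0.08 and a range from -0.36 to 0.60. Of the glycolysis and hypoxia list 11 were measured, and Ldha, lactate dehydrogenase A, was higher (253.9 against 151.3 CPM, log2 ratio 0.75, interval 0.03 to 1.53). Lgals1, galectin-1, was higher in the list of suppressive genes (599.2 against 355.4 CPM, 0.75, and 1.29 without barcodes over 5% haemoglobin), of which 6 were measured and none was lower. None of the 11 measured genes of trafficking and adhesion was apart. Tgfbi, a matrix adhesion protein, was higher at 0.66, and so was Gngt2, a G protein subunit, at 0.64. Both are on the list of non-classical genes, of which 7 were measured in members. Against non-classical monocytes of the same lungs, however, Tgfbi was higher in members, at log2 ratios of 1.05 (metastasis) and 1.33 (sham), and Gngt2 was lower in both.

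MHC class II transcripts, which present peptides to CD4 T cells, were held by few members. H2-Aa, H2-Ab1 and H2-Eb1 had 284 UMIs together in the metastasis lung and 221 in the sham lung. At least 1 such UMI was found in 23.9% and 32.1% of members, against 3.12% and 9.79% of T cell barcodes, which should lack them and had a median depth of 2932 and 3675 non-haemoglobin UMIs. After thinning the shares were 13.4% and 21.4% of members and 1.22% and 2.94% of T cell barcodes. With a line drawn at 10 UMIs after the values were seen, 7 of 67 and 4 of 28 members held 267 and 205 of these UMIs. Between 5 and 19 UMIs lay 1 and 3 members, so few stood near that line. In the metastasis lung the 7 barcodes had Ly6c2 at 420.6 CPM against 1158 CPM in the other 60, F13a1 at 112.2 against 524.6 CPM and Vcan at 112.2 against 478.4 CPM, while Csf1r was at 532.8 against 412.4 CPM. They also held all 5 UMIs of Ciita, the master regulator of class II genes, and all 15 UMIs of C1q. In the sham lung the 4 barcodes had Ly6c2 at 58.6 CPM, from 1 UMI, against 1164 CPM in the other 24. Vcan was at 117.2 against 191.0 CPM there, but F13a1 was not lower, at 761.5 against 677.3 CPM. Fn1, at 4159 against 1797.5 CPM, Ccr2, at 1113 against 581.8 CPM, and Csf1r, at 703.0 against 373.4 CPM, were higher in the 4. C1q was not confined to them, since 1 of the other 24 held 14 UMIs of C1qb. The barcodes rich in class II thus were low in Ly6c2 in both lungs, and Flt3 and Cd209a, genes of dendritic cells, had no UMI in them. Cd209a had no UMI in the other members either, and Flt3 had only 7 and 1 UMIs there, so these zeros do not tell the cell type.

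Between the lungs, H2-Aa was at 289.3 and 710.9 CPM (log2 ratio -1.30), H2-Eb1 at 156.5 and 325.2 CPM (-1.06) and H2-Ab1 at 392.6 and 635.2 CPM (-0.69). They were 3 of 9 measured genes of their list, whose median was -0.43, and over all measured genes 5.76% were lower by the 1.5-fold rule. Up to 55.8% of the sham lung UMIs of a gene came from 1 barcode. Without barcodes holding macrophage or dendritic cell transcripts the ratios were -0.22 for H2-Aa, 0.81 for H2-Ab1 and 1.21 for H2-Eb1, each with an interval that included 0, so these data give no direction for class II. C1qb, at 29.5 and 363.0 CPM, and Apoe, at 1349 and 1724 CPM (-0.35), rest on the same barcodes in part, and Apoe stood at 0.17 without them. Lyz2 was at 18547 and 26982 CPM (-0.54).

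Against non-classical monocytes of the same lungs, members had 52 genes (2.78% of 1873 measured in both libraries, without the genes of the rule) at least 2-fold higher in both lungs and 147 genes (7.85%) at least 2-fold lower. The rule that divides these subsets uses their transcripts, so the values describe the subsets and are not tested. The non-classical class had no limit on Retnlg and Csf3r, and more of its barcodes met the neutrophil call in the metastasis lung. There 15 of 15 measured neutrophil markers were 1.5-fold lower in members, beside 18.7% of all measured genes. In the sham lung 4 of 5 were, beside 20.3%. The part of these barcodes in the comparison was not tested. Among cytoskeletal genes Vim, vimentin, was at 3212 CPM in members of the metastasis lung and 3690 CPM in the sham lung, against 934.5 and 1094 CPM in non-classical monocytes. Capg, an actin capping protein, was at 307.0 and 514.2 CPM against 82.8 and 81.9 CPM, and Gas7 at 168.3 and 249.6 CPM against 19.8 and 52.8 CPM. S100a10, the partner of annexin A2, was at 1314 and 1694 CPM against 272.0 and 306.4 CPM. Ifi30, a lysosomal thiol reductase of antigen processing, was at 1136 and 847.0 CPM against 356.7 and 253.6 CPM. Wfdc17, Tspo, a mitochondrial translocator protein, and Slfn5 completed the genes above.

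On the lower side, Pparg, a lipid-sensing nuclear receptor, was at 8.86 and 7.56 CPM in members against 378.3 and 528.3 CPM in non-classical monocytes, log2 ratios of -5.42 and -6.13. Cd300e, an activating receptor of non-classical monocytes, had no UMI in members of either lung, against 234.3 and 248.3 CPM, which puts members at least 4.73 and 3.45 log2 units lower with 3 counts per library as the floor. Cd300e also serves to call the non-classical class here, and so does Fcgr4, an activating Fc receptor, at 35.4 CPM and 0 UMIs against 426.3 and 285.3 CPM. Dusp16, a phosphatase of JNK and p38, was at 94.5 and 52.9 CPM against 1141 and 1263 CPM. Pglyrp1, a peptidoglycan recognition protein, was at 47.2 and 15.1 CPM against 518.5 and 462.3 CPM. Heg1, Setbp1 and Bcl2a1b, the last of a cluster of near-identical genes, were lower by more than 8-fold in both lungs.

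As groups, lists are given without the genes that call either subset. Of the 18 classical identity genes left, 10 were 1.5-fold higher in members of the metastasis lung and 10 in the sham lung, and 1 was lower in each. Over all measured genes 11% of 4276 and 10.8% of 1884 were higher. Of the non-classical genes left, 12 of 13 and 11 of 12 were lower, beside 18.7% and 20.3% of all measured genes, and Tgfbi was higher in both lungs. The subsets were separated by transcripts of these cells, so nothing further is read from these counts. Oxidative phosphorylation genes were higher in members for 13 of 32 and 7 of 28 and lower for 0, with medians of 0.55 and 0.45 against -0.12 and -0.10 for all measured genes. Apoptosis and survival genes were lower for 6 of 13 and 4 of 8, with medians of -0.80 and -0.98. Immediate early genes differed in sign between the arms. Members over non-classical monocytes had a median of -0.39 in the metastasis lung, with 8 of 21 lower and 0 higher. In the sham lung the median was 0.49, with 6 of 19 higher and 2 lower. Medians without non-classical barcodes that met the neutrophil call are not given here. The same holds for members with macrophage or dendritic cell transcripts, and the difference in sign was not tested.

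Against classical monocytes of blood, lung members had 29 genes (1.69% of 1719 measured in both arms) at least 2-fold higher in both arms and 7 genes (0.407%) lower. Tissue, preparation and library cannot be told apart in this comparison, since Live/Dead columns were part of the lung preparation, and blood cells were taken by density centrifugation. Thbs1, thrombospondin-1, an adhesive glycoprotein, was at 1204 CPM in metastasis lung and 975.5 CPM in sham lung, against 266.7 and 128.9 CPM in blood. Cd14 was at 738.0 and 1119 CPM against 202.4 and 143.2 CPM. Nr4a2 was at 245.0 and 491.6 CPM against 9.52 and 50.1 CPM, and Fosl2, an AP-1 factor, at 307.0 and 355.4 CPM against 42.9 and 57.3 CPM. Lung and blood were far apart for Mpp7, a membrane scaffold protein, with 310.0 and 317.6 CPM in lung, no UMI in metastasis blood and 19.1 CPM in sham blood. Gpr132, a receptor for lactate and oxidised lipids, Uck2, a uridine-cytidine kinase, and Fem1c were higher in lung by 3-fold to 6-fold. Lower in lung were Hist1h1e, a linker histone (50.2 and 45.4 CPM against 242.9 and 348.5 CPM), Ccnd3, cyclin D3, and Tnfaip8l2.

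**Figure D5:**
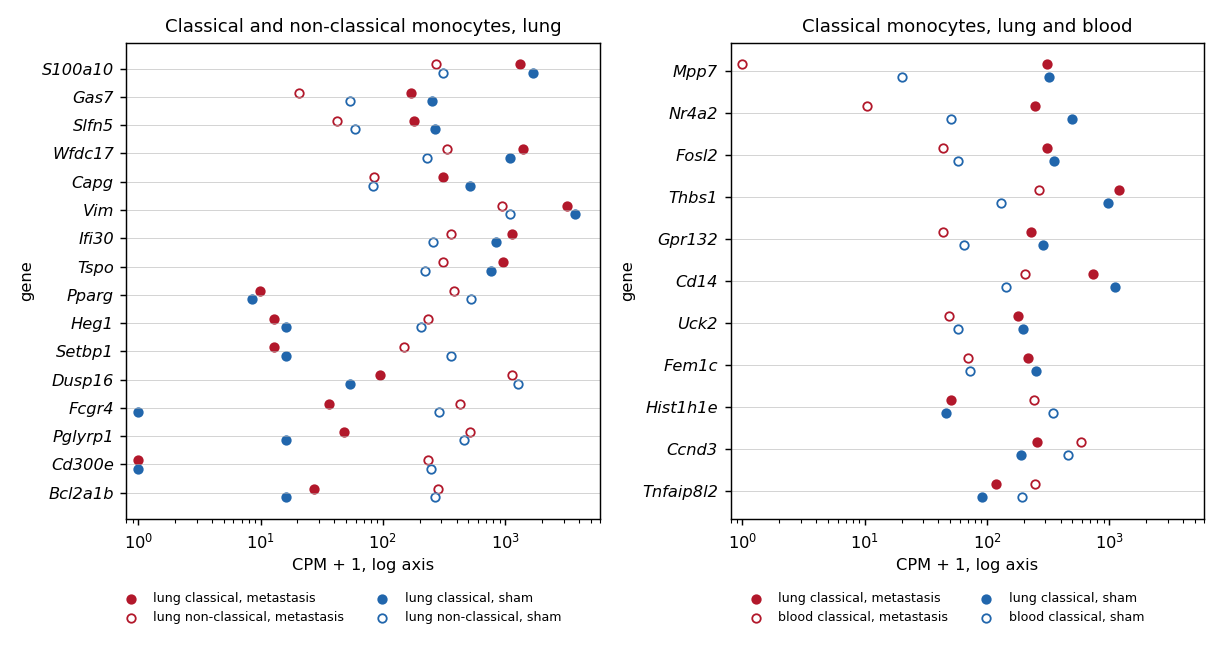
CPM + 1 on a log axis for genes named in the comparison with lung non-classical monocytes (left) and with blood classical monocytes (right), with lung classical monocytes as filled points, the other class as open points, and the metastasis arm red, the sham arm blue. The genes were picked for the same direction in both arms, so filled and open points lie on the same sides of each other by choice. Vim, for example, is at 3212 and 3690 against 934.5 and 1094 CPM.

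Oxidative phosphorylation genes were even between lung and blood, with 0 of 32 and 0 of 31 genes apart and medians of 0.03 and -0.04. The 18 classical identity genes outside the rule had medians of -0.0045 and 0.04. Glucocorticoid-responsive genes were lower in lung for 6 of 7 measured genes in the metastasis arm, where 6.61% of all measured genes were, and for 2 of 4 in the sham arm, where 4.99% were, with medians of -1.29 and -0.71. Immediate early genes over blood were mixed: 4 of 17 higher and 7 lower in the metastasis arm, and 7 of 16 higher and 2 lower in the sham arm, beside 8.53% and 9.93% of all measured genes higher.

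In blood itself, members of the metastasis arm had 46 genes (1.74% of 2650 measured) at least 2-fold higher and 24 (0.906%) lower than members of the sham arm. The sums of class II genes there rested on few barcodes. H2-Aa, H2-Ab1 and H2-Eb1 had 188 UMIs together in the metastasis arm and 455 in the sham arm, where 333 of them (73.2%) came from 1 barcode. At least 1 such UMI was found in 21.2% and 26.4% of members, and no direction is read from the sums. Il1b was at 145.3 and 83.6 CPM (log2 ratio 0.80, interval 0.18 to 1.44) and Thbs1 at 266.7 and 128.9 CPM (1.05), with lung ratios of 0.20 and 0.30. Klf2, Klf4 and Ier5 were near even in blood, at 0.01, -0.20 and -0.00, beside lung values of -1.29, -1.31 and -1.30, and the difference between the tissues was not tested.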

How the data were processed

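The 4 libraries were deposited as UMI count matrices of 32285 genes, which the authors made from droplet libraries. The submitters' processing notes name Cell Ranger 7.0.0, Seurat 4.3.0.1, R 4.3.1 and build GRCm38.p6, and their roles are not given in the sources used here. Counts of rows with the same symbol were summed. All work was done with Python 3.11.15, numpy 2.4.6, scipy 1.17.1, pandas 2.3.3, scanpy 1.11.5 (Scrublet) and matplotlib 3.10.9. No doublets were removed. CPM were taken over non-haemoglobin UMIs summed per library and class, and a gene was measured with at least 50 UMIs over both sums and a mean of at least 20 CPM.

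Genes were counted as apart at 2-fold, and in lists at 1.5-fold, where the exact conditional binomial 95% interval excluded equality. A sum of 0 was set to 3 counts per library. With 1 library per group no test of conditions was run and no p-value is given. Intervals leave out differences between animals, libraries and barcodes, so they are too narrow for genes whose UMIs come from few barcodes. The calculation was tested on simulated sums without differences between barcodes, which cannot show how the intervals hold for such genes. Members were chosen by marker transcripts, and members and lists were chosen with earlier results of these data known.

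Named genes were the 12 highest and the 12 lowest log2 ratios past 2-fold, detected in at least 10% and at least 5 members of the library where they were higher, and at no less than 0.25 of the highest CPM of another class there. For the comparisons with non-classical monocytes and with blood, 8 each way were ranked by the smaller of both libraries' log2 ratios. Some further genes were given whatever their value. Blood barcodes with Pf4 or Ppbp were left out. Alternatives changed the barcode filter, marker minimum, doublets, haemoglobin, scaling, count filter, single barcodes and other cells' transcripts. Those on fibroblast transcripts were chosen after seeing the data. Depth ran from 112079231 to 132540945 UMIs per library. Promoter sequences are from RefSeq.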

Additional observations from a re-analysis of the deposited data

Results flagged for a closer look

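For 6 genes the ratio of metastasis over sham had opposite signs in lung and blood classical monocyte barcodes, each with an interval that excluded equality, and the difference between the tissues was not tested. C1qb, a complement gene of tissue macrophages, had a log2 ratio of -3.62 in lung and 3.17 in blood, from 3 and 4 lung barcodes. Cd14 stood at -0.60 in lung and 0.50 in blood, and Apoe, apolipoprotein E, at -0.35 and 0.56. Over the alternative settings the lung ratio of Cd14 ran from -0.85 to -0.06 and that of Apoe from -0.40 to 0.20. Without barcodes holding macrophage or dendritic cell transcripts Apoe was at 0.17 in lung, the same sign as in blood. Fos stood at -0.36 and 0.29. Mt1, a metallothionein, stood at -0.72 and 1.10. Alas2, the erythroid enzyme of haem synthesis, stood at -0.62 and 1.90. Haemoglobin made up 10.9% of member UMIs in the metastasis lung and 14.1% in the sham lung. In blood it made up 7.73% in the metastasis arm and 3.11% in the sham arm. The part of red cell transcripts in the Alas2 ratios was not tested. The share of all measured genes with opposite signs is not given here, so nothing is read from the count of 6.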

How the results depend on the processing

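No paired analysis was possible because each arm had 1 library per tissue. With 95 members in all, the minimum of 50 UMIs over both sums kept many genes of low or middling level out of the comparison. The share ratio of 4.49 was 2.53 over all kept barcodes. The 30 genes higher in the metastasis lung became 96 with a minimum of 10 UMIs alone, 16 without barcodes over 5% haemoglobin and 48 without each gene's top barcode. The 28 lower genes became 155, 14 without macrophage and dendritic cell transcripts, 12 without fibroblast transcripts as well, and 18 without each gene's top barcode. With the 10 UMI minimum, the 52 genes higher than in non-classical monocytes became 103, and those higher and lower in lung than in blood became 104 and 19. With platelet-transcript barcodes kept the latter were 68 and 35. Without macrophage and dendritic cell transcripts the log2 ratio turned for Apoe (0.17), Egr1 (0.11), Jun (0.047), H2-Ab1 (0.81) and H2-Eb1 (1.21). Without fibroblast transcripts as well it was 0.20 for Apoe, 0.84 for H2-Ab1, 1.23 for H2-Eb1, -0.64 for Gsn and -2.18 for Mgp. Without fibroblast transcripts alone Gsn was at -0.11 and Mgp at -2.07. With at least 4 markers Apoe was at 0.089, Gsn at -0.0562 and Mgp at -2.09, and without barcodes over 5% haemoglobin Gsn was at -0.13 and Mgp at -1.79. The causes of these shifts were not tested. Of 1383 values recomputed, 1266 kept their direction and stayed near their value, 100 moved and 17 turned.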
